A study of Mus musculus with 64 samples.

Results

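Transcript levels of 9 genes that mark or serve resident macrophages were followed in mouse colon after a pinch biopsy, in which forceps remove a small piece of mucosa. The genes were Csf1r, Csf1, C1qa, C1qb, C1qc, Cd68, Cx3cr1, Mertk and Aif1. They were found by symbol, 9 of 9, among the 23990 gene symbols shared by all files. All mice were C57BL/6, an inbred laboratory strain, and each library of poly(A) RNA was made from colon, either from the bed of the wound or, after a sham procedure, from normal tissue. The age of the mice is not given in the labels. A time course held 6 biopsy and 4 sham libraries at 1 h, 5 and 5 at 6 h, 6 and 5 at 3 d, and 5 and 5 at 6 d. A second cohort, collected at 6 h, held 5 biopsy and 6 sham libraries titled abx and 6 biopsy and 6 sham libraries titled veh. Some mice of that cohort drank water with broad-spectrum antibiotics, and the others served as their comparison. The titles and the condition field contradict each other, since abx-titled libraries carry the condition of controls and veh-titled libraries that of antibiotic treatment, so the arms are named here by title and no direction is drawn for antibiotics. Nothing in the labels ties each library to an animal of its own, so the p-values speak only to the spread among these libraries. The labels name no deletion, transgene or cell sorting, so each sample is taken to hold every cell type of the piece that was collected. In such bulk RNA, fewer cells of a type and less RNA per cell cannot be told apart.

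Resident macrophages of the colon lie under the epithelium, are replaced throughout life by blood monocytes, and clear dying cells and microbes. Csf1r encodes the receptor tyrosine kinase on which most of them depend, and Csf1 and Il34 encode its ligands. C1qa, C1qb and C1qc encode the chains of C1q, which binds antibody complexes and dying cells and starts the classical complement pathway with the proteases C1r and C1s. In many tissues macrophages are the main makers of C1q. Mertk encodes a receptor for the bridging proteins Gas6 and protein S on dying cells. Cx3cr1 encodes the fractalkine receptor of mature gut macrophages, Cd68 a lysosomal membrane glycoprotein, and Aif1 the actin-binding protein IBA1.

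The C1q genes lie side by side on the minus strand of chromosome 4, in the order C1qb (chr4:136880129-136886187), C1qc (chr4:136889804-136893065) and C1qa (chr4:136895917-136898803, mm10). Promoter windows of 300 bases ran from 250 before to 50 after the start that RefSeq gives. They were taken from RefSeq on GRCm38.p6, the assembly behind mm10. Windows of 7 of the 9 genes were searched, and genes outside these 7 were not tested for a motif. The windows of C1qb and C1qc are shown because these neighbours fell together at 1 h and 6 h and rose together at 3 d, and those of Csf1 and Cd68 because these genes rose at 6 h while the C1q genes fell. Capitals mark the motifs searched on both strands, which were the PU.1 core GAGGAA, the C/EBP motif TTGCNNAA, the AP-1 motif TGANTCA, the NF-kB motif (GGGA, any base, TTTCC) and the IRF motif (GAAA, any 2 bases, GAAA). PU.1 is the lineage factor of macrophages, and the others are motifs of factors used in inflammation.
C1qb, chr4:136886151-136886450, minus strand: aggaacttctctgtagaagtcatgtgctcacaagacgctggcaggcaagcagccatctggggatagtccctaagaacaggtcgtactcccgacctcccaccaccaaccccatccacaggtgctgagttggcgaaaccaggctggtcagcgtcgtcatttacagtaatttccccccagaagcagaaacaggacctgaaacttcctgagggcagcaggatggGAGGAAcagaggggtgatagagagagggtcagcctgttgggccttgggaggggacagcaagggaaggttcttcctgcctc
C1qc, chr4:136892865-136893164, minus strand: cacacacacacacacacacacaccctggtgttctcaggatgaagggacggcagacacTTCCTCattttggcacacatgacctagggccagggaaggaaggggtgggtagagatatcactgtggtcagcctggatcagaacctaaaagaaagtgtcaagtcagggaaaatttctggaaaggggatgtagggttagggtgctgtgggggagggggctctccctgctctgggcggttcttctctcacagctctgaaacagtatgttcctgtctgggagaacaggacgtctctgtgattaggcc
Csf1, chr3:107760420-107760719, minus strand: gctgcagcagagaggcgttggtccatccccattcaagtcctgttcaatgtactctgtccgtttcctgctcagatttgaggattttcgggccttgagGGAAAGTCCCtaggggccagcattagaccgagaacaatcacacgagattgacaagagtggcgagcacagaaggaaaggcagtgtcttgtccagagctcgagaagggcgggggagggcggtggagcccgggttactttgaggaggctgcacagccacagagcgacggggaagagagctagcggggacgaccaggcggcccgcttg
Cd68, chr11:69666121-69666420, minus strand: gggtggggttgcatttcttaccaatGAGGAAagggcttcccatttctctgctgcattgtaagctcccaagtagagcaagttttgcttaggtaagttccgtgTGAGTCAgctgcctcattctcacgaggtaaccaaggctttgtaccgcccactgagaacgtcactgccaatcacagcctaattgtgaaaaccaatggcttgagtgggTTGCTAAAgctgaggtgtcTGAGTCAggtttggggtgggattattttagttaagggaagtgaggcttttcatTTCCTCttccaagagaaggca
The PU.1 core was found in the windows of C1qb, C1qc, Cd68 and Aif1, 4 of 7. It was found in 28.3% of the 32851 promoter windows of the same length that were searched. In C1qb it began 30 bases before the RefSeq start and in C1qc 193 bases before it, on the other strand. These starts are not those of the gene intervals printed above, which begin 13 bases inside the RefSeq start for C1qb and 151 bases upstream of it for C1qc. The window of Csf1 held the NF-kB motif, which 0.4% of the windows searched held, 154 bases before the start and on the minus strand of the gene. The window of Cd68 held 2 PU.1 cores, 2 AP-1 matches (7.8% of the windows searched have the motif) and 1 C/EBP match (10.8%). The IRF motif (3.4%) was found in Aif1 alone of the 7. No motif overlapped another in the windows printed. These matches describe letters in the windows and are not binding sites.

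Levels are given in FPKM, fragments per kilobase of transcript and per unit of sequencing depth, as deposited. The sum over all genes was 414318 to 522098 FPKM in the libraries of the time course and 229752 to 266646 FPKM in the second cohort, so the cohorts were on different scales and each comparison was made within its cohort. Between 11351 and 12791 genes reached 1 FPKM in a library of the time course, against 10442 to 11336 in the second cohort. The files hold no read counts, and the counting error of a single value is therefore unknown. Log2 changes are differences of mean log2(FPKM + 1), biopsy minus sham, and understate the change of low genes such as Cx3cr1. A gene was called where limma's moderated test gave a Benjamini-Hochberg adjusted p under 0.05 over all genes tested in that comparison. Colon identity was present in all libraries, with 10 epithelial markers summing to 2219 FPKM or more. In 4 libraries (sham 1 at 1 h, biopsy 3 and sham 2 at 6 d, abx-titled sham 3) 10 B cell markers summed to over 100 FPKM, and calls that changed without them are named beside the result. Numbers after a group name are the labels' replicate numbers.

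Most of the 9 genes were called lower at 1 h and 6 h and higher at 3 d. At 1 h, 7 of 9 were called and all 7 were lower in the wound bed, where 54.3% of all genes tested were called (9.38% higher, 45% lower). At 6 h, 8 of 9 were called, 2 higher (Csf1 and Cd68) and 6 lower, against 67.5% of all genes (24.3% higher, 43.2% lower). At 3 d, 7 of 9 were called, all 7 higher, against 42.6% of all genes (32.1% higher, 10.5% lower). At 6 d, 4 of 9 were called, 3 higher (C1qa, Cx3cr1, Aif1) and Mertk lower, against 44.2% of all genes (34.1% higher, 10.2% lower). The median log2 change of the 9 genes was -0.75 at 1 h, -0.62 at 6 h, 0.71 at 3 d and 0.32 at 6 d, and that of all genes tested was -0.18, -0.12, 0.09 and 0.11 at the same times.

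The split of all genes into higher and lower depended on scaling. Under median of ratios scaling the median over all genes became 0.01 at 1 h, 0.00 at 6 h, -0.01 at 3 d and 0.00 at 6 d, and the calls became 2762 higher and 2749 lower at 1 h (1246 and 5973 as deposited), 4318 and 4228 at 6 h (3227 and 5734), 2641 and 2550 at 3 d (4269 and 1397) and 2407 and 2346 at 6 d (4524 and 1351). The members kept their direction under it, apart from Csf1 at 6 d, whose change was near 0. Cd68 at 1 h and C1qa at 6 d lost their call. Log2 changes under that scaling are added below as rescaled values where they matter.

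**Figure D1:**
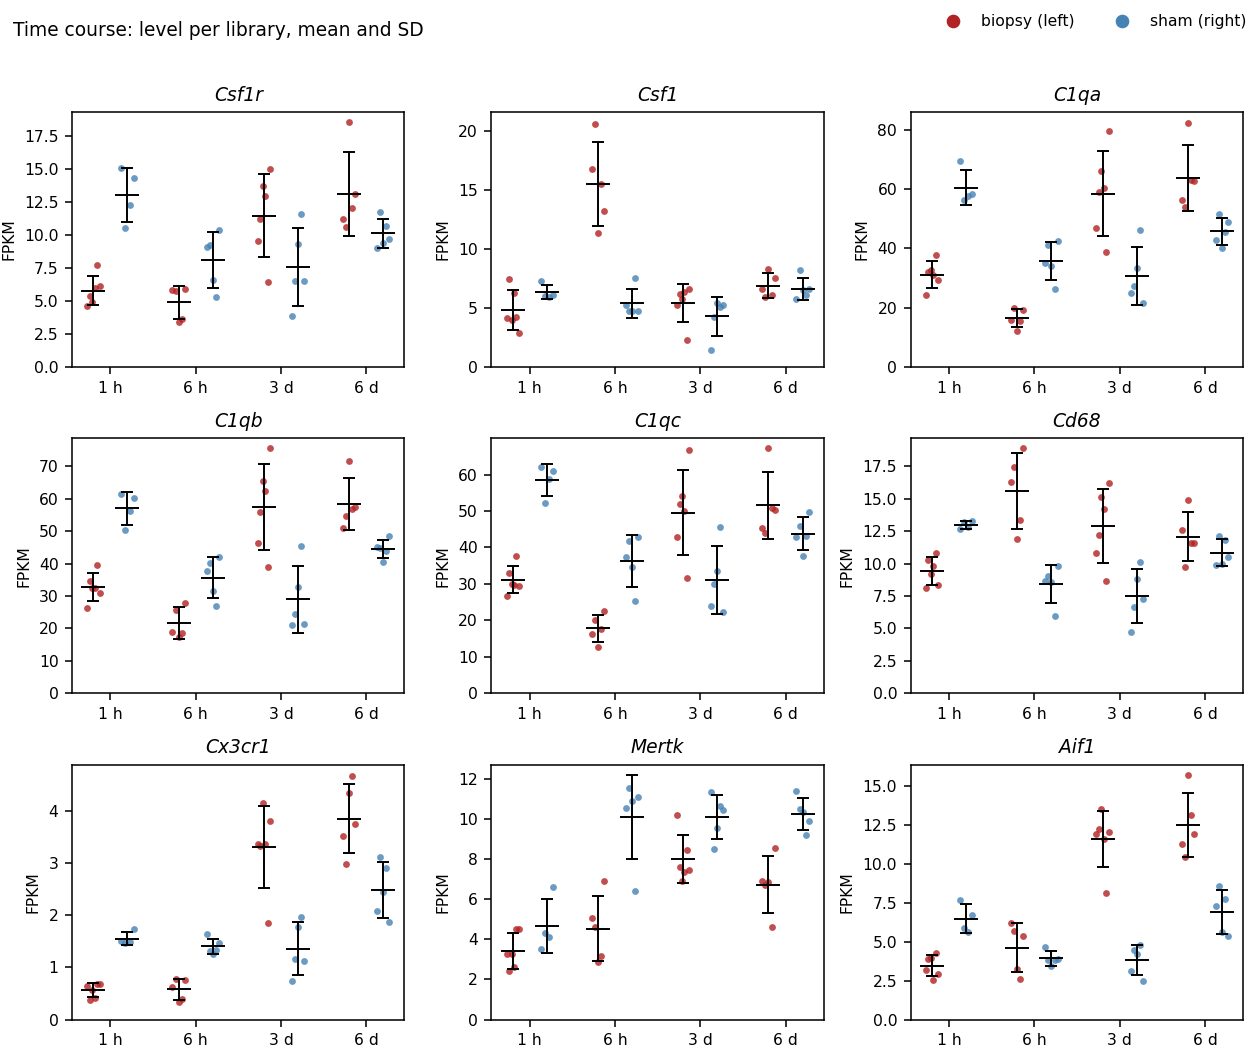
Level in FPKM (y axis) of each of the 9 genes in every library of the time course, by time after the procedure (x axis), with biopsy in red left of sham in blue, and mean and SD as black bars. The biopsy means of the C1q genes and Csf1r lie below the sham means at 1 h and 6 h and above them at 3 d and 6 d, and Csf1 reached 11.3 to 20.6 FPKM in 6 h biopsies.

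The C1q genes had the highest FPKM, a level per length, of the 9 genes in the mean of every group, and fell and rose together. At 1 h, C1qa had a lowest of 24.2, a median of 31.5 and a highest of 37.9 FPKM in biopsies, against 69.4, 56.4, 57.7 and 58.4 FPKM in shams. The groups did not overlap, nor did those of the other 6 genes called at 1 h, against 38.3% of all genes without overlap. C1qa fell (log2 change -0.94, SE 0.170, adjusted p = 1.50e-05). C1qc fell as well (log2 change -0.90, SE 0.169, adjusted p = 3.05e-05), with a range of 26.7 to 37.5 FPKM in biopsies and 52.3 to 61.9 FPKM in shams. C1qb fell too (log2 change -0.79, SE 0.169, adjusted p = 1.69e-04). The rescaled falls were -0.72, -0.57 and -0.67 for C1qa, C1qb and C1qc, all still called.

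At 6 h the C1q genes were low again. C1qa had 15.8, 19.8, 12.1, 15.4 and 19.3 FPKM in biopsies, against 35.0, 41.1, 34.0, 26.4 and 42.5 FPKM in shams (log2 change -1.07, SE 0.167, adjusted p = 7.57e-07). C1qc had 16.3, 20.2, 12.8, 17.6 and 22.5 FPKM in biopsies, against 37.3, 41.7, 34.6, 25.2 and 42.8 FPKM in shams (log2 change -0.98, SE 0.166, adjusted p = 3.22e-06). Neither gene overlapped between the groups, as 53.3% of all genes did not. C1qb had 18.8, 25.8, 17.4, 18.5 and 27.9 FPKM in biopsies, against 37.7, 40.3, 31.4, 26.9 and 42.1 FPKM in shams. The highest C1qb biopsy lay above the lowest sham, and the change was -0.70 (SE 0.166, adjusted p = 3.64e-04). Relative to C1qa in the same library, C1qb stood higher in biopsies: the ratio of C1qb to C1qa was 1.31 ± 0.122 in biopsies and 0.998 ± 0.0560 in shams (SD, n = 5 each), and its ranges, 1.19 to 1.44 in biopsies and 0.924 to 1.08 in shams, did not overlap.

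By 3 d the C1q genes were above sham. C1qa had a lowest of 38.7, a median of 59.6 and a highest of 79.6 FPKM over the 6 biopsies, against 24.9, 27.3, 33.2, 46.1 and 21.7 FPKM in shams (log2 change 0.92, SE 0.159, adjusted p = 1.89e-05). C1qb had a lowest of 39.1, a median of 59.2 and a highest of 75.6 FPKM in biopsies, against 21.1, 24.3, 32.9, 45.5 and 21.4 FPKM in shams (log2 change 0.99, SE 0.159, adjusted p = 5.75e-06). All biopsies but the lowest lay above the highest sham for C1qa and for C1qb. C1qc rose less (log2 change 0.67, SE 0.159, adjusted p = 9.78e-04), and its ratio to C1qa was 0.850 ± 0.0388 in biopsies (n = 6) and 1.02 ± 0.0509 in shams (n = 5). At 3 d the groups did not overlap for 1 of the 9 genes, Aif1, against 20.2% of all genes.

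At 6 d C1qa was the one C1q gene called. C1qa had 56.4, 53.9, 82.4, 63.0 and 62.8 FPKM in biopsies, against 42.7, 51.5, 40.2, 45.4 and 48.9 FPKM in shams. The groups did not overlap, as in 33% of all genes, and C1qa was called (log2 change 0.46, SE 0.167, adjusted p = 0.0243). That call rested on single libraries and on scaling, since the adjusted p was 0.0907 without biopsy 3, 0.0508 and 0.0593 without sham 1 or 3, 0.0767 without the B cell rich libraries and 0.101 after median of ratios scaling. C1qb was not called (log2 change 0.38, interval 0.04 to 0.71, adjusted p = 0.0637) unless only the 6 d libraries were fitted (adjusted p = 0.00439), although its biopsies, 50.9, 54.6, 71.8, 56.9 and 57.5 FPKM, all lay above its shams, 45.1, 44.7, 40.5, 43.9 and 48.3 FPKM. C1qc was not called either (log2 change 0.22, SE 0.166, adjusted p = 0.294). The ratio of C1qc to C1qa was 0.809 ± 0.00716 in biopsies and 0.959 ± 0.0510 in shams (SD, n = 5 each), without overlap.

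**Figure D2:**
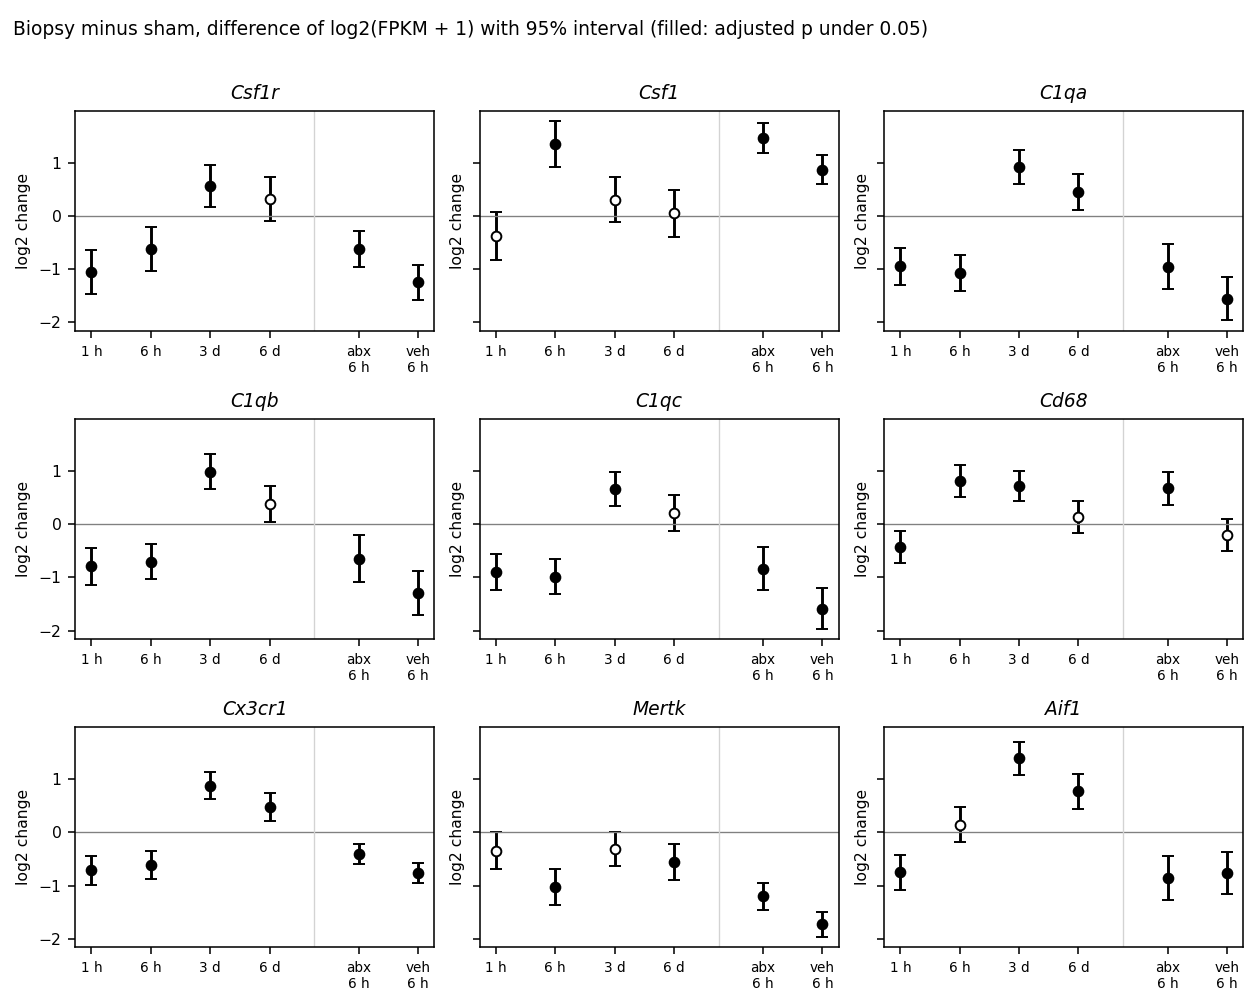
Log2 change of biopsy against sham (y axis, log2(FPKM + 1) scale) with its 95% interval for the 9 genes at 4 times and in the abx-titled and veh-titled arms (x axis). Filled points have an adjusted p under 0.05. C1qa, C1qb, C1qc, Csf1r and Cx3cr1 are below 0 at 1 h and 6 h and above 0 later, Csf1 is high at 6 h only, and Mertk is never above 0.

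The receptor gene Csf1r was lowest soon after injury. At 1 h it had a lowest of 4.62, a median of 5.67 and a highest of 7.69 FPKM in biopsies, against 15.0, 10.5, 12.2 and 14.3 FPKM in shams. No biopsy reached the lowest sham, and Csf1r fell (log2 change -1.05, SE 0.207, adjusted p = 5.63e-05). At 6 h it had 5.79, 5.72, 3.37, 3.67 and 5.92 FPKM in biopsies, against 9.10, 9.20, 6.56, 5.27 and 10.3 FPKM in shams. The groups overlapped at 1 sham, and Csf1r was lower (log2 change -0.62, SE 0.203, adjusted p = 0.00740). At 3 d it had a lowest of 6.40, a median of 12.1 and a highest of 15.0 FPKM in biopsies, against 3.87, 6.53, 9.31, 11.5 and 6.51 FPKM in shams, again with overlap. It was called higher (log2 change 0.57, SE 0.195, adjusted p = 0.0174), but not without sham 1 (log2 change 0.39, adjusted p = 0.11) nor when only the 3 d libraries were fitted (adjusted p = 0.0944). Sham 1 held the lowest sums of 3 d shams for endothelial markers (10.1 FPKM, against 42.2 to 54.6 FPKM in the others) and mesenchymal markers (221 FPKM, against 352 to 437 FPKM), whose part was not tested. At 6 d the levels were 13.1 ± 3.17 FPKM in biopsies and 10.1 ± 1.10 FPKM in shams (SD, n = 5 each), and the gene was not called (log2 change 0.32, SE 0.203, adjusted p = 0.199).

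The ligand gene Csf1 rose at 6 h, when Csf1r was lower. Csf1 was not called at 1 h (log2 change -0.38, SE 0.222, adjusted p = 0.147). At 6 h it had 16.8, 20.6, 11.3, 15.5 and 13.2 FPKM in biopsies, against 5.23, 4.74, 4.72, 7.55 and 4.76 FPKM in shams. Every biopsy lay above every sham, and Csf1 rose (log2 change 1.36, SE 0.217, adjusted p = 1.31e-06, rescaled 1.49). It was not called at 3 d (log2 change 0.31, SE 0.208, adjusted p = 0.237) or at 6 d (log2 change 0.05, SE 0.217, adjusted p = 0.871), where its rescaled change was -0.06. Without biopsy 5 at 3 d, the library with the lowest Csf1 of its group, it was called there (log2 change 0.49, adjusted p = 0.0383). That library also held the lowest sums of 3 d biopsies for endothelial markers (35.4 FPKM, against 65.2 to 106.7 FPKM in the others) and mesenchymal markers (375.2 FPKM, against 496 to 824 FPKM), whose part in its values was not tested. The ratio of Csf1 to Csf1r in a library was 3.27 ± 0.749 in 6 h biopsies and 0.740 ± 0.398 in 6 h shams (SD, n = 5 each), and it averaged 0.86 or less in every other group of the time course.

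Il34, the other ligand gene, was below sham first and above sham later. It had 8.33 ± 1.54 FPKM in biopsies (n = 6) and 17.0 ± 1.44 FPKM in shams (n = 4) at 1 h and fell (log2 change -0.96, SE 0.125, adjusted p = 5.20e-08). It was not called at 6 h (log2 change 0.20, SE 0.122, adjusted p = 0.152), with 21.8 ± 1.84 FPKM in biopsies and 19.0 ± 2.45 FPKM in shams (n = 5 each). At 3 d it had 22.5 ± 1.502 FPKM in biopsies (n = 6) and 13.8 ± 2.61 FPKM in shams (n = 5) and was higher than sham (log2 change 0.68, SE 0.117, adjusted p = 1.81e-05). At 6 d it was still higher (log2 change 0.46, SE 0.122, adjusted p = 0.00248), with 18.6 ± 3.80 FPKM in biopsies and 13.1 ± 2.41 FPKM in shams (n = 5 each).

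Cx3cr1 was the scarcest of the 9 genes. At 1 h it had a lowest of 0.384, a median of 0.602 and a highest of 0.691 FPKM in biopsies, against 1.51, 1.47, 1.49 and 1.74 FPKM in shams, without overlap (log2 change -0.71, SE 0.133, adjusted p = 2.67e-05). At 6 h it had 0.631, 0.769, 0.340, 0.394 and 0.752 FPKM in biopsies, against 1.64, 1.30, 1.26, 1.34 and 1.46 FPKM in shams, again without overlap (log2 change -0.61, SE 0.131, adjusted p = 1.01e-04). On the FPKM scale its mean was 0.577 ± 0.200 FPKM in 6 h biopsies and 1.40 ± 0.152 FPKM in 6 h shams (SD, n = 5 each). At 3 d it had a lowest of 1.85, a median of 3.37 and a highest of 4.14 FPKM in biopsies, against 0.741, 1.17, 1.77, 1.97 and 1.13 FPKM in shams. Only the lowest biopsy lay within the range of the shams, and Cx3cr1 rose (log2 change 0.88, SE 0.125, adjusted p = 8.39e-07). It was higher at 6 d as well (log2 change 0.48, SE 0.131, adjusted p = 0.00320), with 3.85 ± 0.666 FPKM in biopsies and 2.48 ± 0.532 FPKM in shams (SD, n = 5 each). The gene of its ligand, Cx3cl1, a membrane-bound chemokine made by epithelium and endothelium, was lower at 1 h (log2 change -0.30, SE 0.0680, adjusted p = 3.45e-04) and was not called at 6 h, 3 d or 6 d (log2 changes 0.09, 0.05 and 0.04).

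Mertk was not higher in the wound bed at any time. At 6 h it had 5.06, 4.60, 2.87, 3.17 and 6.91 FPKM in biopsies, against 10.6, 11.6, 10.9, 6.39 and 11.1 FPKM in shams. The groups met at 1 library each, the highest biopsy and the lowest sham, and Mertk fell (log2 change -1.03, SE 0.166, adjusted p = 1.50e-06). Its change was not called at 1 h (log2 change -0.34, SE 0.170, adjusted p = 0.0858) or at 3 d (log2 change -0.31, SE 0.159, adjusted p = 0.117). Both outcomes depended on the fit. Without biopsy 5, biopsy 6 or sham 1 at 1 h the adjusted p was 0.046, 0.0446 or 0.0455. At 3 d it was 0.0262 with only the 3 d libraries fitted and 0.0282 after quantile normalization. Other fits gave weaker changes. Over all alternatives the change of Mertk ran from -0.439 to -0.118 at 1 h (adjusted p up to 0.621) and from -0.433 to -0.269 at 3 d (adjusted p up to 0.224). At 6 d it had 6.93, 6.70, 6.87, 4.59 and 8.57 FPKM in biopsies, against 11.4, 10.5, 10.3, 9.22 and 9.89 FPKM in shams. All biopsies lay below all shams (log2 change -0.56, SE 0.166, adjusted p = 0.00649), at a time when C1qa and Aif1 were called higher.

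Gas6, which encodes a ligand of Mertk, also fell at 6 h, to 65.2 ± 19.8 FPKM in biopsies, against 202 ± 19.8 FPKM in shams (SD, n = 5 each, log2 change -1.66, SE 0.129, adjusted p = 2.48e-13). It was not called at 1 h, 3 d or 6 d (log2 changes -0.24, -0.16 and -0.19). Axl, the gene of a related receptor that also binds Gas6, took the other direction at 6 h (log2 change 0.47, SE 0.198, adjusted p = 0.0354), with 14.6 ± 2.06 FPKM in biopsies and 10.2 ± 0.719 FPKM in shams. Axl had been lower at 1 h (log2 change -0.53, SE 0.202, adjusted p = 0.0251) and was not called at 3 d or 6 d (log2 changes 0.09 and 0.20).

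Cd68 parted from the C1q genes at 6 h. At 1 h it had a lowest of 8.14, a median of 9.51 and a highest of 10.8 FPKM in biopsies, against 12.7, 13.2, 12.8 and 13.3 FPKM in shams. It was lower without overlap (log2 change -0.43, SE 0.150, adjusted p = 0.0157), but the call was lost under median of ratios scaling (log2 change -0.22, adjusted p = 0.203) and under quantile normalization (log2 change -0.23, adjusted p = 0.172). At 6 h it had 16.3, 17.4, 11.9, 13.4 and 18.9 FPKM in biopsies, against 8.64, 9.03, 8.61, 5.99 and 9.83 FPKM in shams. Each biopsy exceeded each sham, and Cd68 rose (log2 change 0.81, SE 0.147, adjusted p = 9.19e-06). At 3 d it had a lowest of 8.64, a median of 13.2 and a highest of 16.2 FPKM in biopsies, against 4.69, 6.65, 8.84, 10.1 and 7.24 FPKM in shams, with overlap (log2 change 0.71, SE 0.140, adjusted p = 1.03e-04). It was not called at 6 d (log2 change 0.13, SE 0.147, adjusted p = 0.480).

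Aif1 gave the strongest late rise of the 9 genes. At 1 h it had a lowest of 2.52, a median of 3.53 and a highest of 4.25 FPKM in biopsies, against 7.66, 5.90, 5.604 and 6.72 FPKM in shams, and fell without overlap (log2 change -0.75, SE 0.164, adjusted p = 2.11e-04). At 6 h the biopsies spread on both sides of the shams, with 6.18, 5.69, 3.24, 2.63 and 5.33 FPKM in biopsies, against 4.68, 3.79, 3.43, 3.82 and 3.87 FPKM in shams, and the gene was not called (interval of the log2 change -0.18 to 0.47, adjusted p = 0.432). At 3 d it had a lowest of 8.13, a median of 11.95 and a highest of 13.5 FPKM in biopsies, against 3.14, 4.47, 4.23, 4.77 and 2.47 FPKM in shams. The lowest biopsy was above the highest sham (log2 change 1.39, SE 0.154, adjusted p = 5.48e-09). At 6 d it had 11.2, 10.4, 15.7, 13.1 and 11.9 FPKM in biopsies, against 7.29, 8.54, 5.59, 7.74 and 5.35 FPKM in shams, also without overlap (log2 change 0.77, SE 0.161, adjusted p = 2.18e-04).

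The differences of the biopsy effect between neighbouring times were tested themselves. From 1 h to 6 h, 4 of the 9 effects differed, against 46.9% of all genes tested. The effect at 6 h minus that at 1 h was 1.74 for Csf1 (adjusted p = 2.20e-05), 1.24 for Cd68 (adjusted p = 9.66e-06), 0.90 for Aif1 (adjusted p = 0.00162) and -0.69 for Mertk (adjusted p = 0.0167). Mean Mertk was 4.65 FPKM in shams at 1 h and 10.1 FPKM at 6 h. In biopsies it was 3.44 and 4.52 FPKM, so it did not fall in the wound bed between these times. The difference of Mertk was not called without sham 1 at 1 h (-0.59, adjusted p = 0.0516), without the B cell rich libraries, sham 1 at 1 h among them (-0.59, adjusted p = 0.0589), or with only these libraries fitted (adjusted p = 0.0548). For C1qa, C1qb and C1qc the differences were -0.13, 0.09 and -0.09, with intervals of -0.61 to 0.35, -0.39 to 0.57 and -0.57 to 0.39. Csf1r and Cx3cr1 were not called (0.43 and 0.10).

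From 6 h to 3 d, 8 of 9 effects differed, 7 upward, against 52.2% of all genes tested (41.2% upward, 11% downward). The effect at 3 d minus that at 6 h was 1.99 for C1qa (SE 0.231, adjusted p = 1.71e-08), 1.69 for C1qb, 1.65 for C1qc, 1.49 for Cx3cr1, 1.25 for Aif1, 1.19 for Csf1r and 0.72 for Mertk. Csf1 went down (-1.05, adjusted p = 0.00397), and Cd68 was not called (-0.10, interval -0.51 to 0.31). The call of Mertk was lost under both scalings (adjusted p = 0.0906 and 0.0712). From 3 d to 6 d limma called none of the 9 differences, which ran from -0.62 (Aif1) to -0.25 (Csf1r), against 1.84% of all genes (0.82% upward, 1.02% downward). At an unadjusted p under 0.05, 4 of the 9 would pass (C1qb, Cd68, Cx3cr1 and Aif1, all smaller at 6 d), and C1qb was called when sham 4 at 3 d was left out (-0.79, adjusted p = 0.0437).

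Ratios within a library do not depend on its scale. The group mean of the ratio of the C1q genes (their mean) to Csf1r lay between 3.52 and 5.55 in all 12 groups. Cd68 divided by the mean of the C1q genes was 0.839 ± 0.0726 in 6 h biopsies and 0.235 ± 0.0142 in 6 h shams (SD, n = 5 each). At 1 h the ratio was 0.299 ± 0.0171 in biopsies (n = 6) and 0.222 ± 0.0214 in shams (n = 4). By 3 d the values were 0.234 ± 0.0124 in biopsies (n = 6) and 0.253 ± 0.0503 in shams (n = 5), with overlapping ranges. A ratio shows unequal change and does not say which gene moved.

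**Figure D3:**
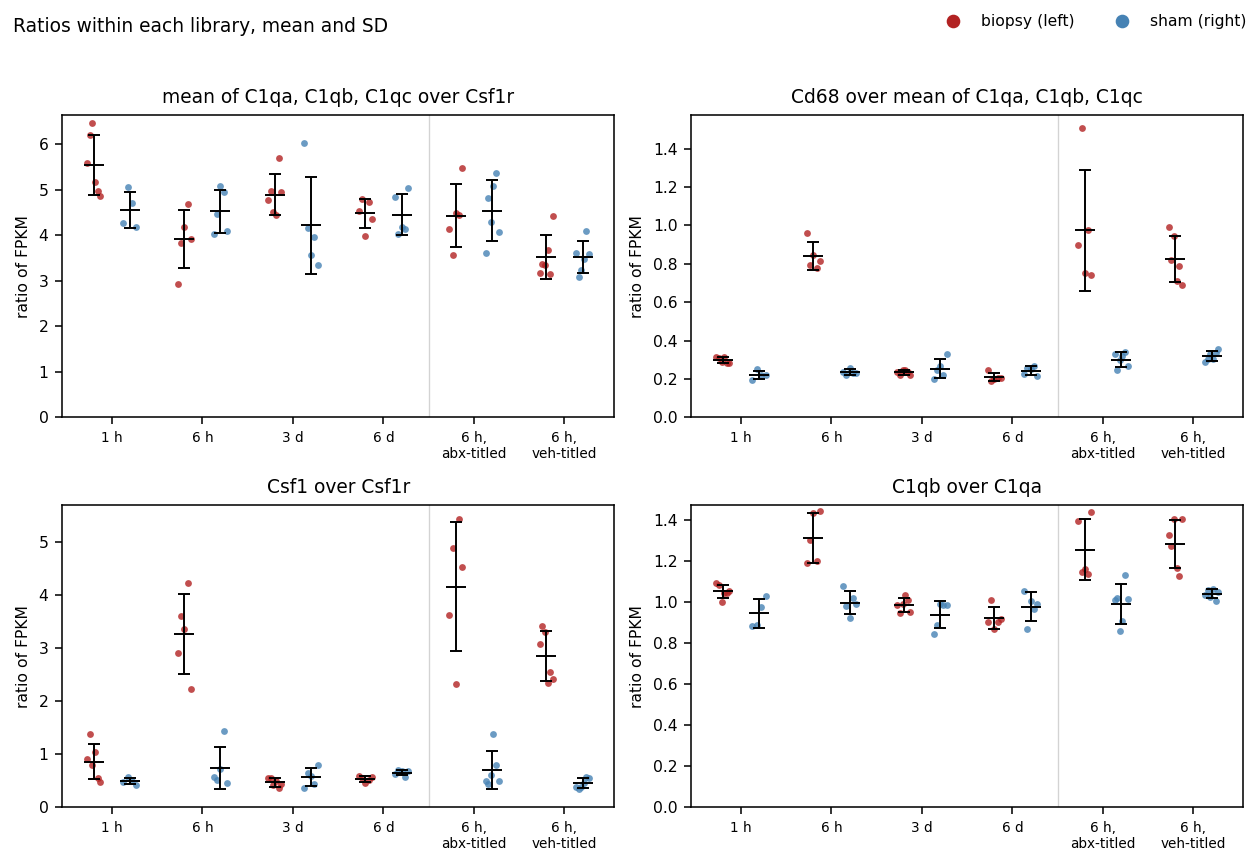
Ratios of FPKM within each library (y axes) by time and arm (x axes), with biopsy in red left of sham in blue, and mean and SD as black bars. C1q over Csf1r lies between 2.93 and 6.47 in all libraries, whereas Cd68 over C1q and Csf1 over Csf1r stand above sham in 6 h biopsies in both cohorts.

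The second cohort followed the 9 genes at 6 h in both arms. In the abx-titled arm all 9 genes were called, 2 higher (Csf1 and Cd68) and 7 lower, against 70.5% of all genes tested (26.5% higher, 43.9% lower). In the veh-titled arm 8 of 9 were called, Csf1 higher and 7 lower, against 74.7% of all genes (25.7% higher, 49% lower). All 9 passed the filter on low values, but Cx3cr1 reached 1 FPKM in this cohort in sham libraries only, so the filter took it in through the group where it is high. With no filter it was called lower in both arms too. The groups did not overlap for 3 genes in the abx-titled arm, against 44.4% of all genes, and for 8 in the veh-titled arm, against 62.2%. The median log2 change of the 9 was -0.64 in the abx-titled and -1.24 in the veh-titled arm, and that of all genes was -0.12 and -0.17. Median of ratios scaling moved the median of all genes to 0.00 and 0.03 and the calls to 4112 higher and 4058 lower in the abx-titled arm (3144 and 5206 as deposited) and 4561 and 3974 in the veh-titled arm (3040 and 5808).

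In the veh-titled arm, C1qa had a lowest of 6.28, a median of 6.91 and a highest of 7.32 FPKM in biopsies, against a lowest of 19.2, a median of 21.6 and a highest of 24.7 FPKM in shams. The groups were far apart (log2 change -1.55, SE 0.194, adjusted p = 2.15e-07). C1qc and C1qb fell too (log2 changes -1.58 and -1.29). In the abx-titled arm, C1qa had 6.77, 5.46, 14.1, 10.04 and 8.56 FPKM in biopsies, against a lowest of 8.57, a median of 17.8 and a highest of 26.6 FPKM in shams, and fell with overlap (log2 change -0.95, SE 0.203, adjusted p = 2.63e-04). The overlap came from sham 4, which held the lowest C1qa, C1qb, C1qc, Csf1r, Cd68, Cx3cr1 and Aif1 of its group. C1qc and C1qb also fell there (log2 changes -0.83 and -0.64), but C1qb was not called with only this arm fitted (adjusted p = 0.0592) or without shams 2 and 5 (-0.46, adjusted p = 0.0679). In these shams 12 inflammatory monocyte markers summed to 1636 and 1726 FPKM, against 695 to 810.5 FPKM in the other shams of the arm. No sham of the arm exceeded 17.5 FPKM of Ly6c2 or 2.01 FPKM of Ccr2, so the sums lay mostly in other genes of the list. Whether monocytes differed was not tested.

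Csf1r had a lowest of 1.95, a median of 2.16 and a highest of 2.43 FPKM in veh-titled biopsies, against a lowest of 5.51, a median of 6.55 and a highest of 7.55 FPKM in veh-titled shams (log2 change -1.24, SE 0.156, adjusted p = 2.38e-07). In the abx-titled arm it had 1.94, 1.57, 3.26, 2.43 and 1.83 FPKM in biopsies, against a lowest of 1.62, a median of 4.34 and a highest of 5.56 FPKM in shams (log2 change -0.63, SE 0.164, adjusted p = 0.00179). The abx-titled groups overlapped through sham 4 alone. Csf1 had 7.01, 7.69, 7.59, 13.3 and 8.30 FPKM in abx-titled biopsies, against a lowest of 2.11, a median of 2.23 and a highest of 3.39 FPKM in abx-titled shams (log2 change 1.46, SE 0.136, adjusted p = 3.32e-09). In the veh-titled arm it had a lowest of 4.70, a median of 6.55 and a highest of 7.47 FPKM in biopsies, against a lowest of 2.35, a median of 2.92 and a highest of 3.36 FPKM in shams (log2 change 0.87, SE 0.129, adjusted p = 2.57e-06). Csf1 biopsies lay above shams without overlap in both arms, as at 6 h in the time course. Il34 was higher in both arms (0.44 and 0.19), although it had not been called at 6 h there.

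Mertk had 2.16, 1.17, 1.54, 1.87 and 1.00 FPKM in abx-titled biopsies, against a lowest of 3.99, a median of 4.56 and a highest of 6.22 FPKM in abx-titled shams (log2 change -1.20, SE 0.121, adjusted p = 1.18e-08). In the veh-titled arm it had a lowest of 1.31, a median of 1.51 and a highest of 2.08 FPKM in biopsies, against a lowest of 5.89, a median of 7.88 and a highest of 8.71 FPKM in shams (log2 change -1.73, SE 0.116, adjusted p = 1.28e-11), the deepest fall of the 9 genes in any comparison. Neither arm had overlap. Gas6 fell beside it, with log2 changes of -2.31 in the abx-titled and -2.28 in the veh-titled arm. Axl was higher in the abx-titled arm (log2 change 0.39, SE 0.156, adjusted p = 0.0322) and was not called in the veh-titled arm (-0.27). Cx3cr1 fell in both arms (-0.40 and -0.76), as did Aif1 (-0.85 and -0.76), which had not been called at 6 h in the time course.

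Cd68 had 7.198, 8.48, 11.0, 10.6 and 7.44 FPKM in abx-titled biopsies, against a lowest of 2.64, a median of 5.57 and a highest of 7.13 FPKM in abx-titled shams, without overlap (log2 change 0.68, SE 0.151, adjusted p = 4.07e-04). In the veh-titled arm it had a lowest of 5.41, a median of 5.88 and a highest of 7.61 FPKM in biopsies, against a lowest of 6.35, a median of 7.48 and a highest of 7.99 FPKM in shams. These overlapped, and Cd68 was not called (log2 change -0.20, SE 0.144, adjusted p = 0.221, rescaled 0.02), while a fit of that arm alone called it lower (adjusted p = 0.0282). The effect in the abx-titled minus that in the veh-titled arm was 0.87 for Cd68 (SE 0.208, adjusted p = 0.0231), the only one of the 9 to be called, where 3.31% of all genes were (2.62% upward). Without abx-titled biopsy 4 or 5 its adjusted p was 0.0534 or 0.0515. The other 8 differences were not called, with intervals such as 0.02 to 1.19 for C1qa and 0.20 to 0.98 for Csf1, which do not show that the effects were alike. Some of them were called once a library was left out: Csf1 without sham 3, which is rich in B cell markers (0.66, adjusted p = 0.0477), C1qc without biopsy 3 (0.92, adjusted p = 0.0346), Mertk without sham 1 or biopsy 6 (0.59 and 0.61, adjusted p = 0.0407 and 0.0405) and Cx3cr1 without shams 2 and 5 (0.43, adjusted p = 0.0488), all of the abx-titled arm.

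The shams of the arms themselves differed in 3 of the 9 genes, all lower in the abx-titled arm, against 12.6% of all genes tested. The shams overlapped for each of the 9, whereas they did not for 6.61% of all genes. Csf1r averaged 4.06 ± 1.37 FPKM in abx-titled shams and 6.56 ± 0.734 FPKM in veh-titled shams (SD, n = 6 each, log2 change -0.63, SE 0.156, adjusted p = 0.00976). Mertk averaged 4.84 ± 0.916 FPKM and Cx3cr1 0.690 ± 0.269 FPKM in abx-titled shams, against 7.55 ± 1.08 FPKM and 1.08 ± 0.114 FPKM in veh-titled shams (log2 changes -0.56 and -0.32). The call of Cx3cr1 was lost with a pseudocount of 0.1, after quantile normalization and with only these groups fitted (adjusted p = 0.0737, 0.065 and 0.0592). Cd68 was lower in abx-titled shams without sham 3 or sham 5 (adjusted p = 0.024 and 0.0347), and Aif1 was higher in them without sham 4 (adjusted p = 0.0145). The same shams are the baseline of the biopsy effects in each arm.

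**Figure D4:**
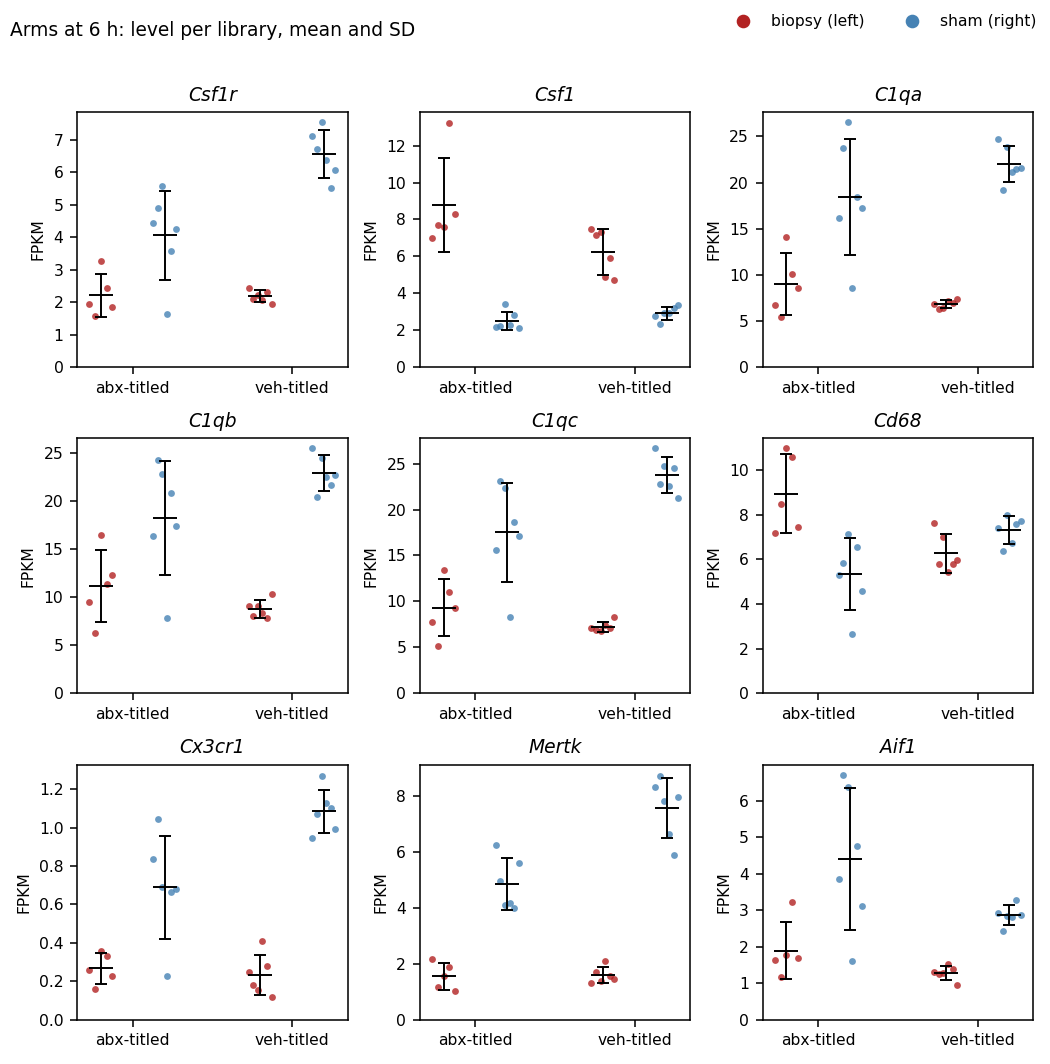
Level in FPKM (y axis) of the 9 genes in every library of the second cohort at 6 h, by arm as titled (x axis), with biopsy in red left of sham in blue, and mean and SD as black bars. C1qa is 6.28 to 7.32 FPKM in veh-titled biopsies and 19.2 to 24.7 FPKM in veh-titled shams, and Cd68 stands above sham in the abx-titled arm only.

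Levels also differed between the sham groups of the time course. The F test over the 4 sham groups called 8 of the 9 genes, all but Csf1 (adjusted p = 0.0626), against 59% of all genes tested. Csf1 was called under median of ratios scaling (adjusted p = 0.0424) and without sham 3, 4 or 5 at 3 d (adjusted p = 0.0411, 0.0496 and 0.0449). C1qa averaged 60.5 ± 6.01 FPKM in shams at 1 h, 35.8 ± 6.43 FPKM at 6 h, 30.7 ± 9.62 FPKM at 3 d and 45.7 ± 4.57 FPKM at 6 d. Mertk was instead lowest in shams at 1 h, with 4.65 ± 1.35 FPKM, against 10.1 ± 2.11 FPKM at 6 h, 10.1 ± 1.09 FPKM at 3 d and 10.3 ± 0.800 FPKM at 6 d. The cause of the differences between shams was not tested. In order of mean C1qa, the groups ran from biopsy at 6 d, sham at 1 h, biopsy at 3 d, sham at 6 d, sham at 6 h, biopsy at 1 h and sham at 3 d to biopsy at 6 h, the lowest. Only the last step of that order was free of overlap. In the order of Csf1 the biopsies at 6 h stood first without overlap, and all later neighbours overlapped.

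The wider set of CSF1 receptor and lineage factor genes, 16 of 16 tested, did not mirror Csf1r at 6 h. There 9 were higher and 2 lower, with a median log2 change of 0.43. Cebpb, the gene of an inflammatory C/EBP factor, and Tyrobp, the gene of the adaptor DAP12, rose by 2.15 and 1.84 on the log2 scale, and Spi1, which encodes PU.1, by 1.15. At 1 h 10 of the 16 were lower and 2 higher (median -0.38), with Irf8 at -1.29 and Maf at -1.14, both genes of lineage transcription factors, and under median of ratios scaling 5 were lower and 2 higher (median -0.20). At 3 d 12 were higher and none was called lower (median 0.69), led by Trem2 (1.27), the gene of a lipid-sensing macrophage receptor. At 6 d 9 were higher and none was called lower (median 0.48). Counts in the arms were 8 higher and 3 lower in the abx-titled and 9 and 4 in the veh-titled arm. Of all genes tested, 9.38% were called higher and 45% lower at 1 h, and 24.3% and 43.2% at 6 h. At 3 d the shares were 32.1% and 10.5%, and at 6 d 34.1% and 10.2%. They were 26.5% and 43.9% in the abx-titled and 25.7% and 49% in the veh-titled arm.

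Of 25 other resident macrophage markers, 19 were tested in the time course. At 1 h 14 of them were lower and none was called higher (median -0.53), led by Stab1 (-0.96), the gene of a scavenger receptor, Cd209f (-0.94) and Cd163 (-0.77), which encodes the haemoglobin scavenger receptor. At 6 h the list divided into 5 higher and 10 lower (median -0.37). Fcgr1 (2.54) and Fcgr3 (1.35), genes of Fc receptors, and Cd14 (2.07), the gene of the endotoxin co-receptor, rose, all of which monocytes also express. Adgre1, which encodes F4/80, fell with C1q, to 1.46 ± 0.312 FPKM in biopsies, against 2.47 ± 0.560 FPKM in shams (SD, n = 5 each, adjusted p = 0.00317). At 3 d 11 were higher and 2 lower (median 0.54), with Lgmn, a lysosomal protease gene, at 1.17 and Apoe at 1.01. At 6 d 6 were higher and 6 lower (median 0.25), with Cd14 at 0.90, Selenop, the gene of a selenium carrier, at -0.89 and Folr2, the gene of a folate receptor of resident macrophages, at -0.81. Over all genes tested 45% were lower at 1 h, and 24.3% were higher and 43.2% lower at 6 h. The shares were 32.1% and 10.5% at 3 d and 34.1% and 10.2% at 6 d.

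**Figure D5:**
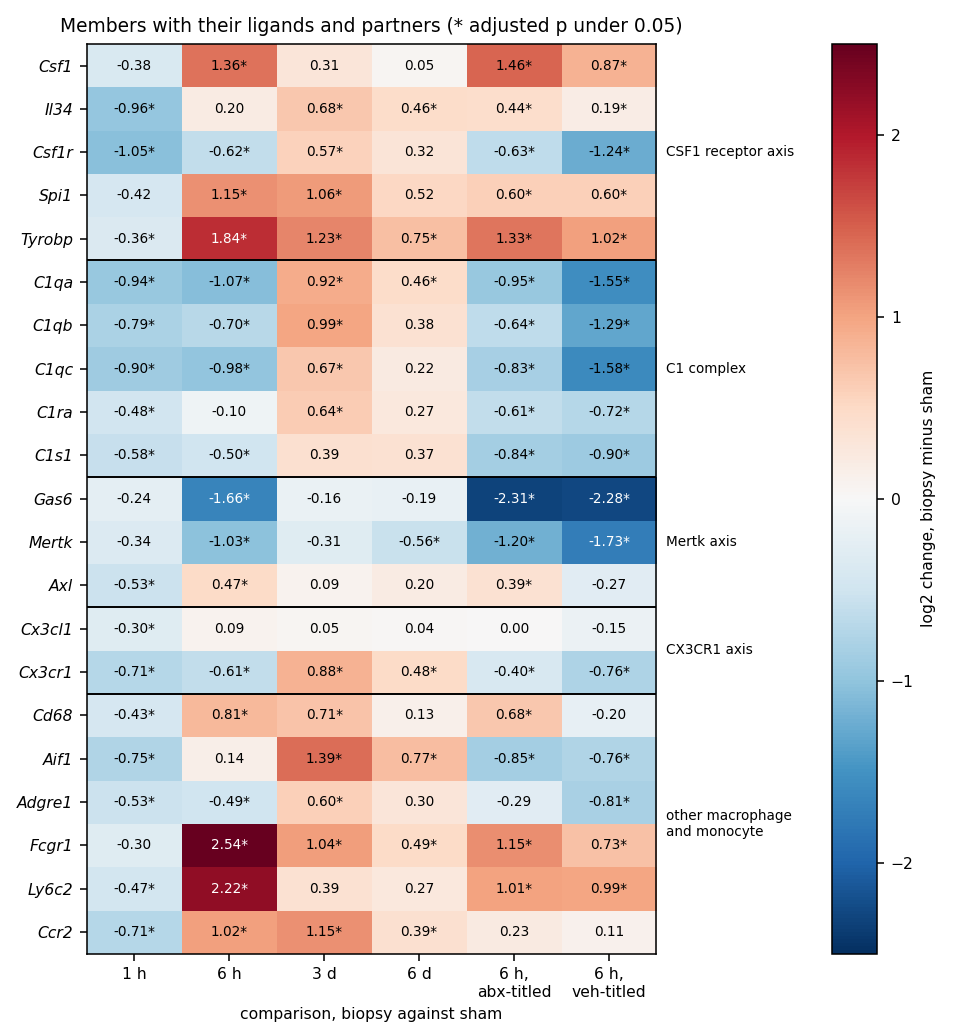
Log2 change of biopsy against sham (colour, and the number in each cell) for the members and their ligands, partners and related macrophage and monocyte genes (rows) in 6 comparisons (columns). An asterisk marks an adjusted p under 0.05. At 6 h Csf1, Tyrobp, Fcgr1, Ly6c2 and Cd68 are above 0, and Csf1r, C1qa, C1qb, C1qc, Gas6 and Mertk are below it.

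Genes of other complement proteins and receptors were called in both directions at 1 h and 6 h and in 1 direction at 3 d and 6 d. Of 15 tested in the time course (16 in the list), 1 was higher and 5 lower at 1 h, 4 and 4 at 6 h, 10 and 0 at 3 d and 7 and 0 at 6 d, with medians of -0.28, 0.11, 0.67 and 0.39. Of all genes tested 45% were lower at 1 h and 43.2% at 6 h, while 32.1% were higher at 3 d. At 6 d 34.1% were higher. Under median of ratios scaling 2 were higher and 2 lower at 1 h, 5 and 2 at 6 h, 10 and 0 at 3 d and 4 and 0 at 6 d. The protease genes C1ra and C1s1, whose products join C1q in the C1 complex, were lower at 1 h (-0.48 and -0.58). At 6 h C1s1 was lower (-0.50) and C1ra was not called (-0.10). At 3 d C1ra was higher (0.64) and C1s1 was not called (0.39), while C3, the gene of the central complement protein, rose by 1.52. The 6 h rises were led by C5ar1 (1.62), Itgb2 (1.58) and Itgam (1.31), genes of receptors that neutrophils and monocytes carry too. In the arms 4 were higher and 7 lower of 13 tested in the abx-titled and 3 and 8 in the veh-titled arm, with C1ra at -0.61 and -0.72 and C1s1 at -0.84 and -0.90, all lower. The shares over all genes tested were 26.5% higher and 43.9% lower in the abx-titled arm, and 25.7% and 49% in the veh-titled arm.

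Genes for the uptake of dying cells, 14 of 17 tested, had 0 higher and 5 lower at 1 h, 3 and 7 at 6 h, 6 and 0 at 3 d and 8 and 2 at 6 d, with medians of -0.22, -0.29, 0.27 and 0.37. Among all genes tested 45% were lower at 1 h and 43.2% at 6 h. The shares called higher were 32.1% at 3 d and 34.1% at 6 d. At 1 h the rescaled median was -0.02, with 0 higher and 2 lower. Besides Gas6, the largest called changes at 6 h were those of Itgav (1.14), the gene of an integrin chain that is not particular to macrophages, and Stab1 (-1.02). Adam10 and Adam17, genes of proteases that shed fractalkine, were lower with Cx3cl1 at 1 h (-0.34 and -0.45), not called at 6 h, and higher at 3 d (0.40 and 0.33) and 6 d (0.40 and 0.40).

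Markers of other cells moved beside these results. Of 12 inflammatory monocyte markers, 0 were higher and 4 lower at 1 h, 9 and 1 at 6 h, 6 and 1 at 3 d and 5 and 2 at 6 d. All genes tested were lower in 45% of cases at 1 h. They were higher in 24.3% at 6 h, 32.1% at 3 d and 34.1% at 6 d. At 6 h Chil3 rose by 3.13 and Ly6c2 by 2.22, whose reads may be shared with the near-identical Ly6c1 and whose value is therefore uncertain. Ccr2, the receptor gene of monocyte entry, was lower at 1 h (-0.71), higher at 6 h (1.02), at 3 d (1.15) and at 6 d (0.39), and not called in the arms. All 12 neutrophil markers tested were higher at 6 h, with S100a9 at 7.96, and their sum was 396 to 997 FPKM in biopsies, against 1.605 to 6.996 FPKM in shams. Ly6g was not matched, and Camp did not pass the filter. With sums this low in shams, the filter could take these markers in through the biopsies, where they are high. The count of 12 was therefore set in part by the filter.

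Red blood cell genes summed to 833 to 6066 FPKM in 1 h biopsies, against 32.4 to 141 FPKM in 1 h shams, and to 172 to 3116 FPKM in 6 h biopsies, against 20.6 to 74.2 FPKM in 6 h shams. The 10 epithelial markers summed to 8123 to 9726 FPKM in 1 h biopsies, against 5351 to 6148 FPKM in 1 h shams, and to 7806 to 8827 FPKM in 6 h biopsies, against 4707 to 5269 FPKM in 6 h shams. At 3 d all 9 smooth muscle markers were lower (median -1.05), with sums of 719 to 1904 FPKM in biopsies, against 1454 to 3667 FPKM in shams. Endothelial markers were higher in 8 of 8 cases at 3 d and at 6 d, and mesenchymal markers in 6 of 8 at both times. Among all genes 32.1% were higher and 10.5% lower at 3 d, and 34.1% were higher at 6 d. Of 8 B cell markers tested limma called 0 at any time, with 0 at an unadjusted p under 0.05, and of 4 T cell markers it called 0 at 1 h and 6 h, 1 at 3 d and 3 at 6 d, all higher. Of 4 dendritic cell markers Batf3 was lower at 1 h (-1.02) and Ccr7 higher at 6 h (0.84). Of 3 mast cell markers tested, Mcpt1 and Mcpt2 were higher and Kit, which interstitial cells of Cajal also express, lower at 6 h. Over all genes tested 9.38% were higher and 45% lower at 1 h, and 24.3% and 43.2% at 6 h. The arms gave 8 higher and 1 lower monocyte marker in the abx-titled and 7 and 3 in the veh-titled arm, and 12 of 12 neutrophil markers higher in both. There 26.5% of all genes tested were higher and 43.9% lower in the abx-titled arm, and 25.7% and 49% in the veh-titled arm. The neutrophil markers, low in shams, could pass the filter through biopsies here too. The part of tissue composition in the changes of the macrophage genes was not tested.

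Over the 41 libraries of the time course, the genes whose log2 levels were most like the mean of the C1q genes were Psap (r = 0.933), Apoe (0.930), Emid1 (0.913), Stab1 (0.908) and Rgs10 (0.908), and over the 23 libraries of the arms their correlations were 0.904, 0.896, 0.818, 0.919 and 0.839. Those most like Csf1r were Stab1 (0.925), Psap (0.912), Tmem119 (0.906), Abcg3 (0.899) and Cxcl12 (0.896), with 0.933, 0.897, 0.816, 0.888 and 0.744 in the arms. Psap encodes the precursor of lysosomal saposins. Among the members, C1qa correlated with C1qc at 0.983, with C1qb at 0.976 and with Csf1r at 0.919 in the time course. With Mertk C1qa correlated at 0.263 in the time course and at 0.859 in the arms, and at 0.173 and 0.073 within groups. Cd68 correlated with Csf1r at 0.407 over all 41 libraries and at 0.910 once each group's mean was removed. Csf1 and Csf1r stood at -0.024 over all libraries and 0.541 within groups. These are descriptions over libraries that share groups and scale, without a test.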

How the data were processed

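Poly(A) RNA from mouse colon was sequenced after RNeasy extraction and library preparation with the TotalScript kit, per the labels' protocols. The authors deposited 1 table of FPKM per library, made with STAR and Cufflinks on mm10, per the submitters' processing notes; versions and the gene annotation are not given in the sources. FPKM are scaled to the total of each library, so a few abundant genes can shift all others. The 41 libraries of the time course and the 23 of the arms differ in scale and were tested apart. Genes that reached 1 FPKM in 4 or more libraries (13285 and 11849 genes) were tested on log2(FPKM + 1) with limma 3.58.1 in R 4.3.3 (trended empirical Bayes over all groups of a cohort, 33 and 19 residual degrees of freedom, two-sided, Benjamini-Hochberg over all genes tested). Tables and figures were made with Python 3.11.15, numpy 2.4.6, pandas 2.3.3 and matplotlib 3.10.9, and the fit was tested on simulated data.

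Groups came from the sample titles and conditions. The 9 members and the 16 gene lists (185 entries, 183 matched) were chosen with earlier results of these data known. The text names all members, the partner genes of the heatmap, up to 3 called genes of largest change per list and comparison, and the 5 genes most correlated with C1q or Csf1r; Adam10, Adam17, Ccr7, Batf3, Mcpt1, Mcpt2 and Kit fall under the list rule. Alternatives were a pseudocount of 0.1, no filter or a filter of 5 FPKM, median of ratios scaling, quantile normalization, only the groups compared, a replicate block and leaving out each library. Fits without the B cell rich libraries, and without abx-titled shams 2 and 5, were added after the data were seen.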

Additional observations from a re-analysis of the deposited data

Results flagged for a closer look

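Single libraries stood far from the rest of their group in 12 of 108 sets of values (9 genes in 12 groups), by the gap to the nearest library as a share of the range of the group; chance flags about 1 in 20 such sets. Biopsy 5 at 3 d was the lowest of its group for Aif1 (8.13 FPKM), Csf1 (2.30 FPKM) and Cx3cr1 (1.85 FPKM), and also held the lowest endothelial and mesenchymal marker sums of its group (35.4 and 375.2 FPKM). Sham 4 at 6 h was the lowest of its group for Cd68 (5.99 FPKM) and Mertk (6.39 FPKM) and the highest for Csf1 (7.55 FPKM). Sham 1 at 1 h, rich in B cell markers, was the highest for C1qa (69.4 FPKM) and Csf1 (7.26 FPKM), and sham 5 at 1 h was the highest for Cx3cr1 (1.74 FPKM). Sham 1 at 3 d was the lowest for Csf1 (1.42 FPKM), and likewise for the endothelial and mesenchymal marker sums (10.1 and 221 FPKM). In the abx-titled arm, biopsy 5 was the highest for Csf1 (13.3 FPKM) and sham 4 the lowest for C1qb (7.80 FPKM).

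The biopsy effect differed between times or arms by limma's test of the difference itself in 13 cases. Of all genes tested, 46.9% differed from 1 h to 6 h and 52.2% from 6 h to 3 d. Between the arms 3.31% differed. The effect at 6 h minus that at 1 h was 1.74 for Csf1, 1.24 for Cd68, 0.90 for Aif1 and -0.69 for Mertk on the log2 scale. The effect at 3 d minus that at 6 h was 1.99 for C1qa, 1.69 for C1qb, 1.65 for C1qc, 1.49 for Cx3cr1, 1.25 for Aif1, 1.19 for Csf1r, 0.72 for Mertk and -1.05 for Csf1. The effect in the abx-titled minus that in the veh-titled arm was 0.87 for Cd68. Both Mertk differences, that of Csf1 from 6 h to 3 d and that of Cd68 between arms lost their call under some alternatives.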

How the results depend on the processing

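Of 2441 pairs of a member's result and an alternative, 2366 kept direction and side of the threshold, 28 lost a call, 32 gained one and 15 changed sign. Leaving out 1 library gave 7 to 8 members called at 1 h, 8 at 6 h, 6 to 8 at 3 d, 3 to 4 at 6 d, 9 in the abx-titled and 8 in the veh-titled arm, 0 to 1 for the effect at 6 d minus 3 d and 0 to 2 for the abx-titled minus the veh-titled effect. Of all 13285 genes such fits called 6322 to 7150 at 1 h, 8572 to 9038 at 6 h, 4842 to 5763 at 3 d and 5205 to 5649 at 6 d. Of 11849 genes they called 8019 to 8495 in the abx-titled and 8624 to 8815 in the veh-titled arm. Without the B cell rich libraries 2 members, and without abx-titled shams 2 and 5 again 2, were called in the difference between arms, against 1 with all libraries. Over all genes the counts were 457 and 578, against 392. Without these 2 shams 5 members, against 3, differed between the shams of the arms, and 1480 of all genes, against 1490.

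Sign changed for these values, none of them called: Csf1 at 6 d (-0.06 and -0.12 under median of ratios scaling and quantile normalization, -0.012 to 0.12 without single libraries); Cd68 in the veh-titled arm (0.024 under median of ratios scaling); Csf1 at 6 d minus 3 d (-0.439 to 0.003); Cd68 at 3 d minus 6 h (-0.235 to 0.007, also 0.005); C1qc (-0.209 to 0.02) and C1qb (-0.006 to 0.157, also -0.005) at 6 h minus 1 h; and Aif1 between arms (-0.281 to 0.03, also 0.007 and 0.018, without single libraries, 0.018 without B cell rich libraries, 0.11 without abx-titled shams 2 and 5). The causes were not tested.

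Replicate numbers are not said to pair libraries, and same-numbered libraries did not deviate together (correlations of -0.282 to 0.254; at most 1 library per set best matched its own number). With the replicate block 5 members were called in the abx-titled arm (2 higher, 3 lower), against 9, with Csf1r, C1qa, C1qb and C1qc at adjusted p = 0.105, 0.0543, 0.151 and 0.0627, and 0, against 1, in the difference between arms. Over all genes the block called 6989 of 11849 in the abx-titled arm, against 8350, and 3545 at 3 d, against 5666. It called 45 at 6 d minus 3 d, against 244, and 167 between arms, against 392. That last count was 213 with a filter of 5 FPKM, of fewer genes tested, and 237 to 694 without single libraries. At 6 d minus 3 d it was 161 with only these groups fitted and 146 to 521 without single libraries. A filter of 5 FPKM left 5346 and 5605 called in the abx-titled and veh-titled arm, against 8350 and 8848. Depth is given only as FPKM, so counting error at low levels, as for Cx3cr1, is unknown. A relative depth was estimated within each cohort from genes detected in few libraries. It was 1.000 to 1.196 in 6 d shams and 1.257 to 1.384 in 6 d biopsies, without overlap. In abx-titled biopsies it ran from 1.000 to 1.568. Its part in the results was not tested.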
